A study of Danio rerio with 17 samples.

Results

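The vacuolar ATPase (V-ATPase) and lysosomal hydrolase genes were taken by symbol from the deposited tables of adult zebrafish epidermis. Every gene identifier whose symbol began with atp6v or atp6ap was included, together with 24 listed symbols of lysosomal enzymes and membrane proteins. This gave 49 of the 35117 gene identifiers, of which 27 were V-ATPase subunits or accessory subunits and 22 were lysosomal. The V-ATPase genes comprised 13 of the V1 sector, 9 of the V0 sector and 5 accessory genes. The lysosomal genes comprised 10 glycosidases, 6 other hydrolases and 6 membrane or lipid transfer proteins. No identifier carried the symbols gns and lipa, which the list also named.

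The V-ATPase is a rotary pump that moves protons into endosomes, lysosomes and secretory organelles. Its cytosolic V1 sector hydrolyses ATP, and its membrane V0 sector carries the protons through a ring of c subunits. The acid it makes lets soluble hydrolases cut glycans, proteins and lipids in the lysosome, and in phagocytes of the skin this compartment breaks down cargo taken up from outside the cell.

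RNA was sequenced from cells picked by hand under fluorescence and amplified by SMART-seq2, in 17 libraries from 3 to 4 independent experiments per cell type. MLCs and cLCs, abbreviations that the labels leave unexplained, both came from fish with the transgenes hsp70:mCherry-T2a-CreERT2 and, in the same line, mpeg1:loxP-DsRedx-loxP-GFP, in which the promoter of the macrophage gene mpeg1 drives the reporter. They gave 4 libraries each. Keratinocytes came from Tg(krt4:lyn-GFP), neutrophils from Tg(lyz:GFP) and T cells from Tg(lck:DsRedx) fish, with 3 libraries each, and the labels name no treatment for any group. The reporter line therefore differed between all groups except MLCs and cLCs, and line and cell type cannot be told apart in the other comparisons. The number of cells per library is not given in the sources used here, and fewer cells of a type and less RNA per cell cannot be told apart in such pools.

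Libraries held 5837662 to 24596883 counts and 4484 to 16921 genes with at least 1 count. The libraries cLCs replicate 3 and 4 and neutrophils replicate 2 and 3 had under 6000 genes, while the other 13 had at least 8564. Summed TPM of the marker lists was highest in the labelled group for keratinocytes, neutrophils and T cells. The 7 keratinocyte markers also summed to 117 to 1311 TPM in MLCs, against 13970 to 53673 TPM in keratinocytes. Their sum did not exceed 63.2 TPM in any cLC, neutrophil or T cell library. A list of 8 macrophage genes summed to 8153 to 21242 TPM in cLCs and 476 to 869 TPM in MLCs, where csf1ra was at 0 counts and mpeg1.1 made up nearly all of the sum. T cell markers summed to 473 to 1457 TPM in cLCs, with il2rb and zap70 at 0, against 1514 to 1838 TPM in T cells. In cLCs this sum was nearly all cd4-1 and cd8a, with means of 453 and 464 TPM, against 121 and 330 TPM in T cells. The mean of lck was 5.53 TPM in cLCs and 708 TPM in T cells. The part of these markers in the results was not tested.

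The V-ATPase as a whole was most abundant in cLCs. Summed over the 27 genes, which TPM allows because it is scaled to gene length, the level was 1465, 1732, 2101 and 1707 TPM in MLCs replicates 1 to 4 and 6262, 4152, 6078 and 3981 TPM in cLCs replicates 1 to 4 (replicates are given in this order throughout). Keratinocytes had 723, 789.8 and 599.7 TPM, neutrophils 1898, 1631 and 1874 TPM and T cells 867, 963 and 738 TPM. Every cLC library thus lay above every library of the other groups, and the mean of cLCs was 2.92 times that of MLCs (5118 ± 1219 against 1751 ± 263 TPM, SD, n = 4 each). MLCs and neutrophils overlapped (1801 ± 148 TPM in neutrophils), and both lay above keratinocytes (704 ± 96.4 TPM) and T cells (856 ± 113 TPM, n = 3 each). With the 4 libraries of under 6000 genes left out, the cLC mean was 5207 TPM over 2 libraries and the 1 neutrophil library stood at 1898 TPM.

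In summed TPM, the 16 hydrolase genes differed by a larger ratio between the mpeg1 groups (MLCs and cLCs). Their summed level was 575, 664, 1139 and 768 TPM in MLCs and 2396, 3456, 6469 and 3127 TPM in cLCs, a ratio of means of 4.91 with no overlap. With the 4 libraries of under 6000 genes left out, the cLC mean fell from 3862 to 2926 TPM over 2 libraries, against 786 TPM in MLCs. Keratinocytes held 409.7, 412 and 488 TPM, neutrophils 1118, 341 and 729.7 TPM and T cells 423, 393 and 294 TPM. Neutrophils spread the most of these 3 groups and overlapped with MLCs, keratinocytes and T cells. Gene by gene, the median fitted log2 fold change of MLCs against cLCs was -1.19 for the glycosidases and -1.44 for the V-ATPase genes tested. For the other hydrolases it was -3.45. The larger ratio of the hydrolase sum was thus not seen in the median of the glycosidases. The 6 membrane and lipid transfer genes were high in cLCs at 2784, 3009, 3002 and 2931 TPM and in T cells at 2255, 3122 and 2891 TPM, and these groups overlapped. In T cells this sum was mostly laptm5, which made up 72.7% of the TPM of all 22 lysosomal genes there, against 43.0% in MLCs, 53.5% in neutrophils, 17.1% in cLCs and 0.00843% in keratinocytes (means).

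**Figure D1:**
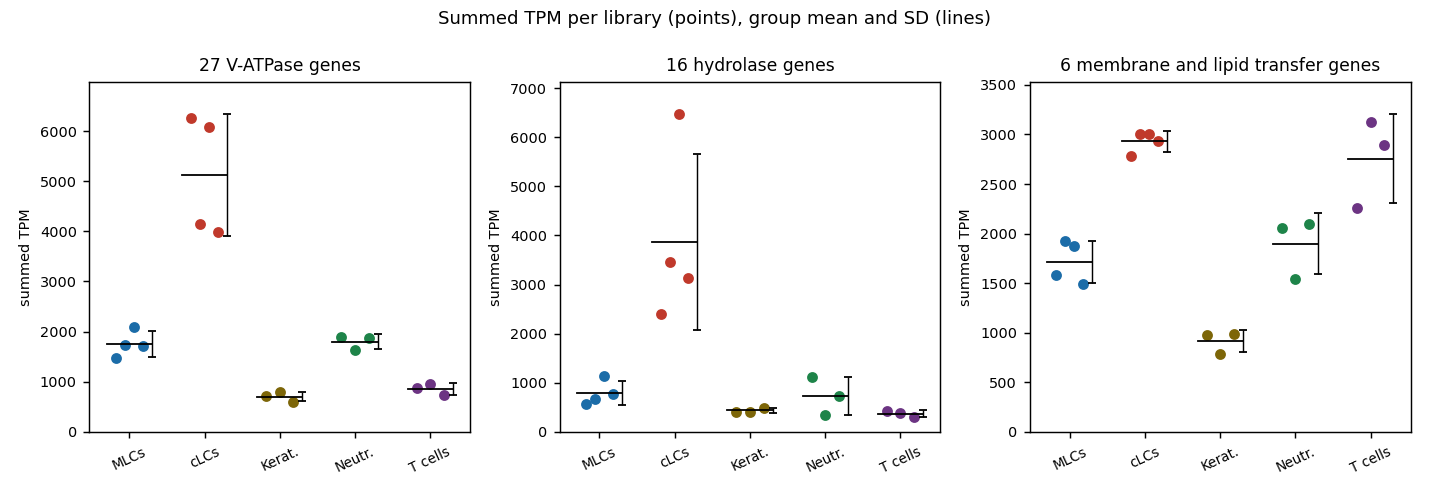
Summed TPM (linear vertical axes) of the 27 V-ATPase, 16 hydrolase and 6 membrane and lipid transfer genes in the 5 groups (horizontal axes), with 1 point per library and lines for the group mean and SD. All 4 cLC libraries lie above the other groups for the V-ATPase and the hydrolases, whereas cLCs and T cells overlap in the right panel.

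The mean level was highest in cLCs for 38 of the 49 genes, in neutrophils for 4, in keratinocytes for 2, in T cells for 2 and in MLCs for 0, with 3 genes at 0 counts everywhere. By the median the cLC count was 32, and without the 4 libraries of under 6000 genes it was 30. Lowest means fell in keratinocytes for 18 genes, T cells for 11, MLCs for 8, neutrophils for 8 and cLCs for 1. The groups of highest and lowest mean were not counted over all genes, so these counts have no background share. In all 17 libraries 12 of the genes had counts, namely atp6ap2, atp6v0a1a, atp6v0b, atp6v0ca, atp6v0e1, atp6v1aa, atp6v1d, atp6v1e1b, atp6v1g1, lamp2, laptm4a and ppt1. The genes with counts per library ranged from 25 in neutrophils replicate 3 to 46 in cLCs replicate 1.

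**Figure D2:**
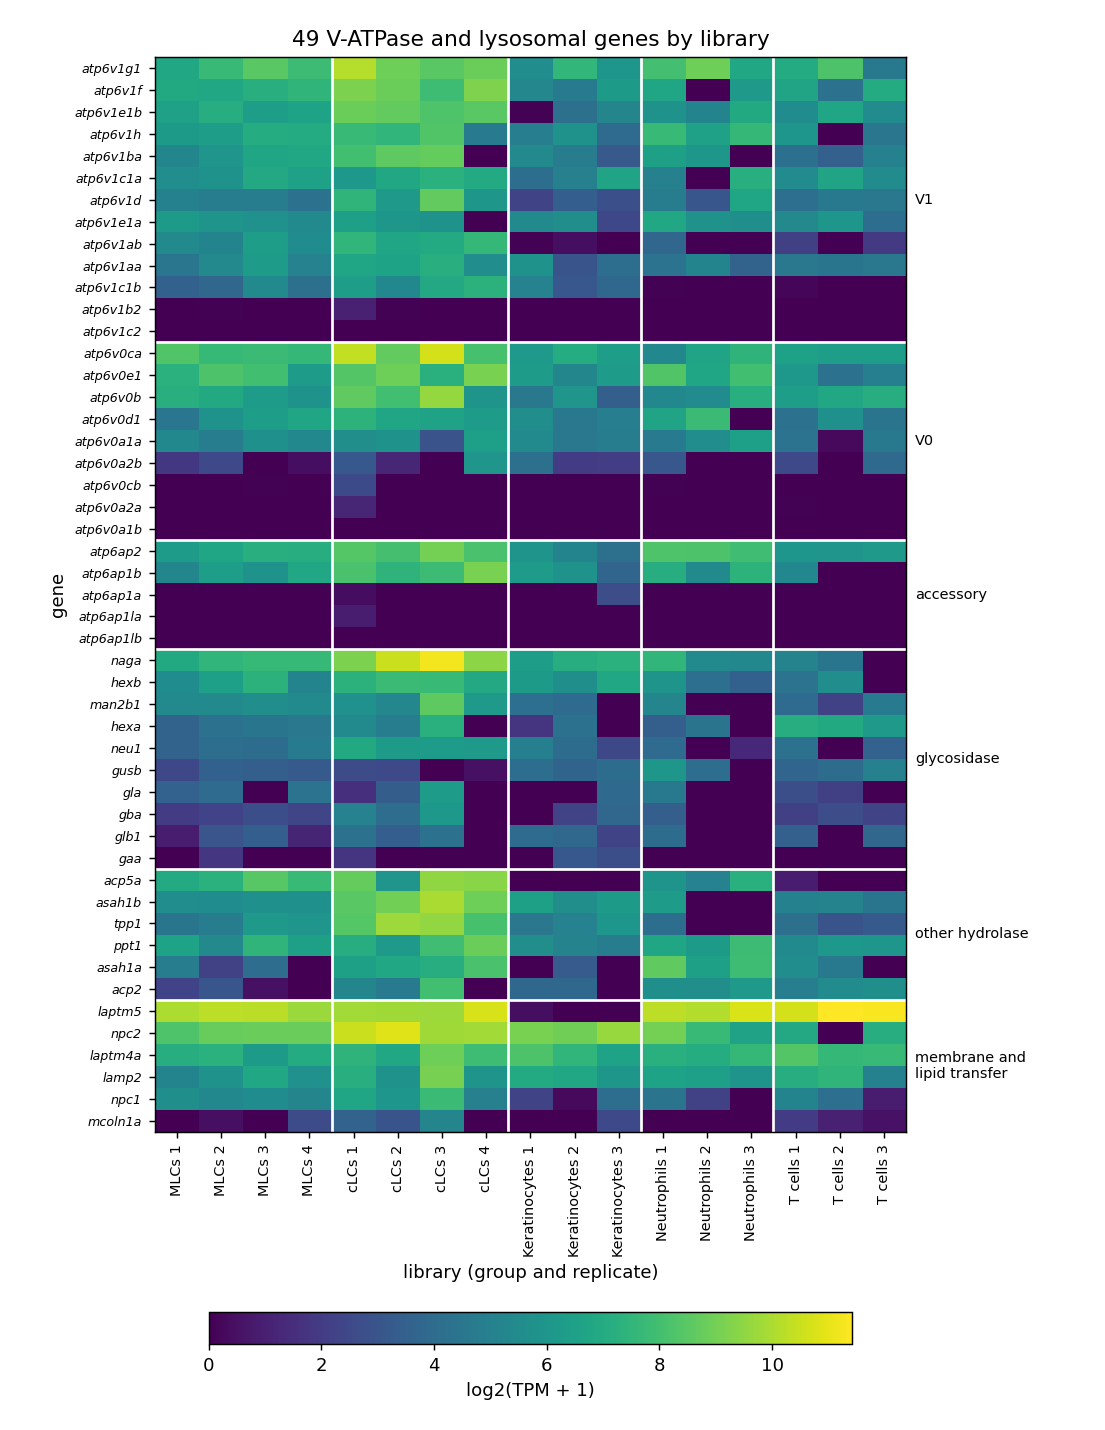
Level of each of the 49 genes (rows, by role and then by mean level) in each of the 17 libraries (columns), as log2(TPM + 1) on the colour scale. The cLC columns are brightest for most V1, V0, accessory and hydrolase rows, laptm5 is dark in keratinocytes, and single dark cells are frequent in the libraries with few genes.

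Gene by gene, the 5 groups were compared with edgeR's quasi-likelihood test on the counts, with Benjamini-Hochberg adjustment over all 15247 genes tested and a threshold of 0.05. Of the 49 genes 41 passed the filter on low counts, and 8 did not (atp6v1b2, atp6v1c2, atp6v0cb, atp6v0a1b, atp6v0a2a, atp6ap1a, atp6ap1la and atp6ap1lb, with at most 5.45 TPM and at most 3 libraries with counts). Across the 5 groups 7 genes were called, 3 of the V-ATPase (atp6v1c1b, atp6v0ca, atp6v1ab) and 4 lysosomal (laptm5, acp5a, tpp1, naga). Of all genes tested 16.0% were called, so 7 genes is near the background share. At an unadjusted p under 0.05 the count was 14, against 31.0% of all genes. The common biological coefficient of variation was 2.03. Without cLCs replicate 2 the count was 4 (12.7% of all genes), and without the 4 libraries of under 6000 genes it was 14 (12.1%).

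In the V1 sector, the A subunit, which holds the catalytic ATP site, came from paralogs with different patterns. The atp6v1ab level was 42.2, 34.3, 80.4 and 46.6 TPM in MLCs and 180.1, 105, 127 and 192 TPM in cLCs. Keratinocytes had 0.0322, 0.337 and 0 TPM of it, neutrophils 12.7, 0 and 0 TPM and T cells 3.54, 0 and 2.81 TPM. The gene atp6v1ab (ENSDARG00000076318) was called across the 5 groups (edgeR adjusted p = 0.0253), with every cLC library above every MLC library and both groups above all keratinocyte, neutrophil and T cell libraries. Without cLCs replicate 2 its adjusted p was 0.0565. Its paralog atp6v1aa had counts in all libraries, at 21.6, 41.1, 76.6 and 32.7 TPM in MLCs and 108, 98.3, 147 and 47.9 TPM in cLCs. In the other groups atp6v1aa stood at 58.2, 6.87 and 16.4 TPM (keratinocytes), 19.3, 34.7 and 11.4 TPM (neutrophils) and 22.8, 20.6 and 22.98 TPM (T cells). Every cLC library of atp6v1aa lay above every neutrophil and T cell library, the other pairs of groups overlapped, and the gene was not called (edgeR adjusted p = 0.256). As a share of the A subunit's TPM, atp6v1ab accounted for 66.2, 45.5, 51.2 and 58.8% in MLCs and 62.4, 51.7, 46.2 and 80.1% in cLCs. Its share was 0.0552, 4.68 and 0% for keratinocytes, 39.6, 0 and 0% for neutrophils and 13.4, 0 and 10.9% for T cells, below both mpeg1 groups in every library. Neutrophils replicates 2 and 3, at 0%, had under 6000 genes, while replicate 1 came near the lowest MLC share of 45.5%.

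The C subunit, which bridges the sectors and is released when the pump disassembles, was likewise split. The atp6v1c1b level was 10.8, 12.7, 42.9 and 17.6 TPM in MLCs and 79.8, 39.1, 119 and 159 TPM in cLCs. Outside the mpeg1 groups atp6v1c1b stood at 32.00, 7.51 and 13.5 TPM (keratinocytes), 0.0394, 0 and 0 TPM (neutrophils) and 0.119, 0 and 0 TPM (T cells). Of the gene atp6v1c1b (ENSDARG00000035880), neutrophils and T cells had counts in 1 library each, while keratinocytes overlapped with MLCs. It was called across the 5 groups (edgeR adjusted p = 0.00263) and was the only gene of the 49 called for MLCs or cLCs against neutrophils. MLCs were higher than neutrophils (log2 fold change 10.25, SE 2.45, adjusted p = 0.0294 by edgeR), from 1579 counts over 4 libraries against 1 count over 3, a ratio of 1753 with a 95% counting interval of 315 to 69253. For cLCs against neutrophils it was higher as well (log2 fold change 12.15, SE 2.62, adjusted p = 0.0233 by edgeR), with 5750 counts against 1, a ratio of 6571 and an interval of 1179 to 259535. Both comparisons share the neutrophil libraries. The 2 intervals cover counting error in the neutrophil count only and leave out the spread between libraries. Without neutrophils replicate 1, 2 or 3 the adjusted p against MLCs was 0.0584, 0.139 or 0.112, and without MLCs replicate 2, 3 or 4 it was 0.0563, 0.0630 or 0.0533. Against cLCs it was 0.152 without neutrophils replicate 2, 0.109 without replicate 3 and 0.0525 without cLCs replicate 2. Without the 4 libraries of under 6000 genes the values were 0.230 for MLCs and 0.318 for cLCs, and with the replicate number as a block the MLC value was 0.0509. It was 0.0517 for MLCs with no filter on low counts, and 0.0631 for cLCs with only the 2 groups compared in the fit.

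The paralog atp6v1c1a stood at 46.7, 57.1, 118 and 91.7 TPM in MLCs and 67.6, 116, 158 and 126 TPM in cLCs. In the remaining groups it was at 16.3, 30.2 and 100.12 TPM (keratinocytes), 30.2, 0 and 144 TPM (neutrophils) and 44.97, 99.8 and 45.1 TPM (T cells). These ranges overlapped throughout, and edgeR gave an adjusted p of 0.997 across the 5 groups. The share of C subunit TPM from atp6v1c1b was 18.8, 18.2, 26.7 and 16.1% in MLCs and 54.2, 25.3, 42.9 and 55.7% in cLCs. The 2 groups overlapped only in that cLCs replicate 2 lay below MLCs replicate 3. In keratinocytes the share ranged from 11.9% to 66.2%, and in neutrophils and T cells it was at most 0.263% in the libraries with any C subunit.

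Of the E subunit, part of the stalks that hold the stator, atp6v1e1b was the more abundant paralog in both mpeg1 groups. The atp6v1e1b level was 90.7, 136, 83.2 and 98.1 TPM in MLCs and 464, 406, 306 and 362 TPM in cLCs. T cells held 45.98, 103 and 44.2 TPM, neutrophils 57.4, 34.6 and 123 TPM and keratinocytes 0.0618, 17.5 and 36.2 TPM. All cLC libraries lay above all libraries of the other groups, but the 5-group test did not pass (edgeR adjusted p = 0.1005). Its paralog atp6v1e1a was at 73.5, 59.5, 53.7 and 43.6 TPM in MLCs and 86.3, 65.4, 55.5 and 0 TPM in cLCs. Elsewhere atp6v1e1a stood at 41.3, 49.7 and 4.51 TPM (keratinocytes), 114, 54.99 and 50.4 TPM (neutrophils) and 40.01, 62.1 and 16.6 TPM (T cells) (edgeR adjusted p = 1.00 across the 5 groups). It reached no more than 114 TPM in any library. Every neutrophil library lay above every keratinocyte library of it, and the other pairs of groups overlapped. The share of E subunit TPM from atp6v1e1b was 55.3, 69.5, 60.8 and 69.2% in MLCs and 84.3, 86.1, 84.7 and 100% in cLCs, with no overlap between them. It ranged from 0.149 to 88.9% in keratinocytes, 33.5 to 70.9% in neutrophils and 53.5 to 72.7% in T cells. Keratinocytes thus overlapped with both mpeg1 groups, and neutrophils and T cells with MLCs. Whether the counting dropped or split reads that match several paralogs is not stated, and these shares are uncertain where paralogs are alike in sequence.

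**Figure D3:**
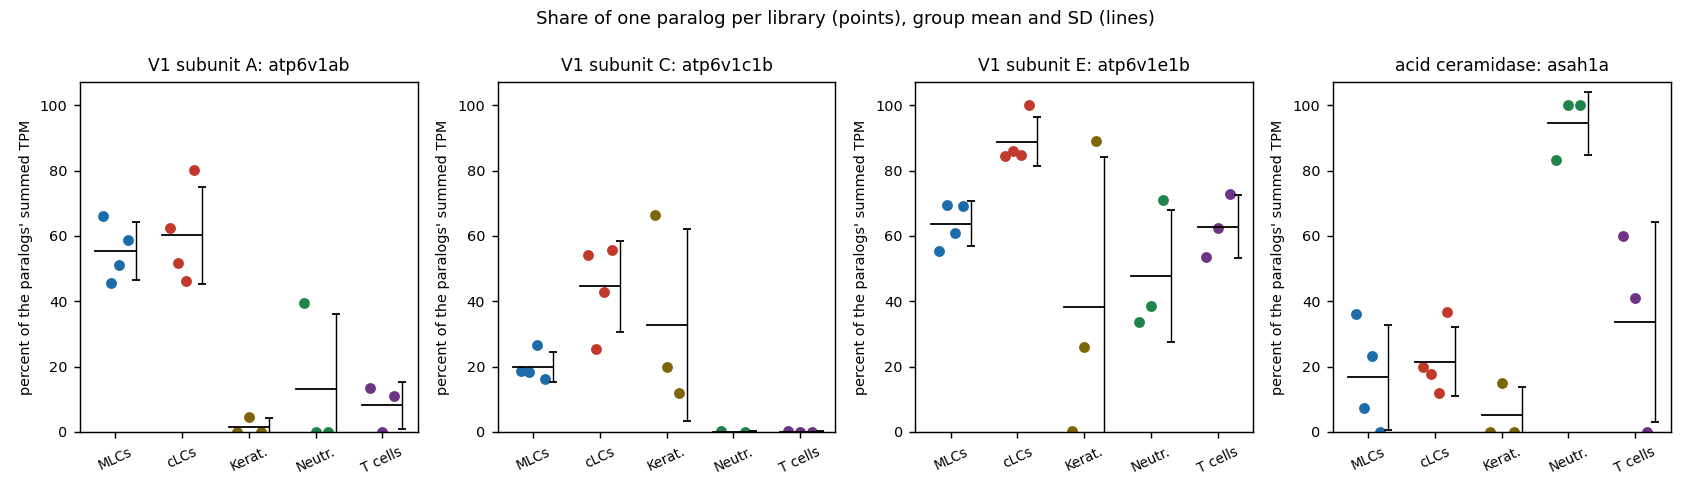
Share (percent, linear vertical axes) of the TPM of a subunit or enzyme that came from 1 of its paralogs, with 1 point per library and lines for the group mean and SD. The share of atp6v1ab is at most 39.6% outside the mpeg1 groups and between 45.5% and 80.1% within them.

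Among the other V1 genes, atp6v1g1 and atp6v1f, a stator and a rotor subunit, had the highest mean levels of the sector. The atp6v1g1 level was 115, 210.3, 358 and 223 TPM in MLCs and 1151, 476, 358 and 465 TPM in cLCs. Keratinocytes had 47.1, 188 and 63.9 TPM of it, neutrophils 258, 480.0 and 115 TPM and T cells 129, 297 and 23.5 TPM. In cLCs replicate 1 atp6v1g1 stood far above the other 3 cLC libraries, which overlapped with MLCs and neutrophils. The atp6v1f level was 121, 113, 144 and 175 TPM in MLCs and 573, 463, 232 and 598 TPM in cLCs. Outside the mpeg1 groups atp6v1f stood at 38.05, 25.95 and 73.2 TPM (keratinocytes), 108, 0 and 68.8 TPM (neutrophils) and 101, 19.05 and 131 TPM (T cells). For atp6v1f the cLC libraries lay above those of all other groups in TPM. Neither gene was called (edgeR adjusted p = 0.246 and 0.211). The central shaft gene atp6v1d was at 31.7, 27.7, 27.3 and 19.05 TPM in MLCs and 179, 69.3, 411 and 65.3 TPM in cLCs without overlap (edgeR adjusted p = 0.0829 across the 5 groups). The regulatory subunit gene atp6v1h and the nucleotide-binding subunit gene atp6v1ba varied widely among cLC libraries, at 206, 183, 322 and 24.4 TPM and 252, 388, 423 and 0 TPM. The low value of each was in cLCs replicate 4, which had 4484 genes with counts, the fewest of all libraries. Of the B subunit, atp6v1ba carried nearly all of the TPM, since atp6v1b2 did not exceed 1.05 TPM, and atp6v1c2 had 0 counts in all libraries.

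The V0 sector was led by atp6v0ca (ENSDARG00000057853), which encodes the proton-carrying ring subunit c. The atp6v0ca level was 323, 203, 218 and 192 TPM in MLCs and 1336, 410.2, 1630.3 and 272 TPM in cLCs. T cells held 90.3, 80.9 and 80.1 TPM, neutrophils 38.9, 101 and 173 TPM and keratinocytes 72.3, 135 and 83.4 TPM. Every MLC and cLC library lay above every library of the other 3 groups, while MLCs and cLCs overlapped because cLCs replicate 4 lay below MLCs replicate 1. The 5-group test called it (edgeR adjusted p = 0.0175), and none of the 7 pairwise comparisons did. The call was lost without cLCs replicate 1 (0.0618), T cells replicate 2 (0.0590) or T cells replicate 3 (0.0609) and without the filter on low counts (0.0687). The paralog atp6v0cb was at most 4.95 TPM, in cLCs replicate 1.

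The small V0 subunit gene atp6v0e1 ranked second in the sector. The atp6v0e1 level was 156, 295, 249 and 76.4 TPM in MLCs and 328, 481, 153 and 550.1 TPM in cLCs. Keratinocytes had 76.2, 36.8 and 75.00 TPM of it, neutrophils 314, 105 and 251 TPM and T cells 66.6, 18.9 and 29.3 TPM. Levels overlapped between MLCs, cLCs and neutrophils, and edgeR gave an adjusted p of 0.144 across the 5 groups. The proteolipid gene atp6v0b was at 143, 121, 78.3 and 54.7 TPM in MLCs and 397, 251, 784 and 59.8 TPM in cLCs, where replicate 4 fell within the MLC range. The gene atp6v0d1, whose product couples the rotor to the ring, ranged from 0 to 222 TPM, both ends in neutrophils. Of the subunit a genes, which place the pump in a given membrane, atp6v0a1a ranged from 0.229 to 86.2 TPM and atp6v0a2b from 0 to 61.8 TPM, and atp6v0a1b had 0 counts in all libraries. Where a group had 0 counts, 3 counts over the group would have been 0.0473 to 0.0808 CPM (counts scaled to library size), a limit that covers counting error only.

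Among the accessory genes, atp6ap2, which encodes the prorenin receptor and is needed to assemble the pump, was abundant in cLCs and neutrophils. The atp6ap2 level was 79.2, 108, 143 and 136 TPM in MLCs and 344, 264, 523 and 285 TPM in cLCs. Outside the mpeg1 groups atp6ap2 stood at 59.3, 34.4 and 17.3 TPM (keratinocytes), 306, 301 and 241 TPM (neutrophils) and 62.2, 61.4 and 69.7 TPM (T cells). Neutrophils overlapped with cLCs and lay above every MLC library, and cLCs lay above MLCs, keratinocytes and T cells without overlap. The 5-group test missed the threshold (edgeR adjusted p = 0.0572). The gene atp6ap1b, for the subunit Ac45, was also highest in cLCs, above every library of the other groups. The atp6ap1b level was 37.1, 81.6, 57.8 and 115 TPM in MLCs and 279, 172, 226 and 548 TPM in cLCs. T cells held 39.3, 0 and 0 TPM, neutrophils 139, 41.5 and 168 TPM and keratinocytes 74.9, 54.99 and 12.3 TPM. It was not detected in T cells replicates 2 and 3, and its edgeR adjusted p was 0.305. The other 3 accessory genes reached at most 5.45 TPM.

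Of the glycosidases, which remove sugars from glycoproteins and glycolipids, naga (ENSDARG00000099313) was the most abundant and was the one called. It encodes alpha-N-acetylgalactosaminidase. The naga level was 121, 181, 202 and 197 TPM in MLCs and 566, 1436, 2358 and 692 TPM in cLCs. Keratinocytes had 81.4, 138 and 158 TPM of it, neutrophils 181, 43.6 and 39.5 TPM and T cells 33.6, 20.4 and 0 TPM. Every cLC library lay above every library of the other groups, and the lowest values were in neutrophils and T cells. Across the 5 groups edgeR gave an adjusted p of 0.0155, which became 0.0715 without cLCs replicate 2. Of MLCs against cLCs, naga had a log2 fold change of -2.74 (SE 1.23, edgeR adjusted p = 0.347).

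The beta-hexosaminidase subunit genes hexb and hexa were highest in different groups. The hexb level was 46.01, 85.8, 163 and 34.9 TPM in MLCs and 162, 216, 205 and 118 TPM in cLCs. Outside the mpeg1 groups hexb stood at 73.1, 50.7 and 111 TPM (keratinocytes), 58.9, 16.9 and 10.6 TPM (neutrophils) and 19.6, 46.9 and 0 TPM (T cells). The cLC range of hexb overlapped with that of MLCs (edgeR adjusted p = 0.270 across the 5 groups). In T cells hexa stood at 137, 121 and 69.5 TPM while hexb stood at 19.6, 46.9 and 0 TPM, so that each T cell library had more hexa than hexb. In MLCs hexa was at 11.5, 17.97, 20.7 and 22.8 TPM, below hexb in each library, and in cLCs it ranged from 0 to 150 TPM. The sialidase gene neu1 was at 11.2, 16.4, 15.3 and 25.4 TPM in MLCs and 122, 73.4, 79.1 and 69.2 TPM in cLCs, and every cLC library lay above every library of the other groups. The alpha-mannosidase gene man2b1 was even in MLCs at 43.2, 42.2, 48.5 and 43.5 TPM and ranged from 37.7 to 389 TPM in cLCs. The genes gba (glucocerebrosidase), gla (alpha-galactosidase), glb1 (beta-galactosidase) and gaa (acid alpha-glucosidase) reached at most 77.6 TPM, and each of them was at 0 in cLCs replicate 4. The gene gusb, for beta-glucuronidase, had its lowest group mean in cLCs, at 5.19, 4.73, 0 and 0.416 TPM, and reached 63.97 TPM in neutrophils replicate 1.

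Among the other hydrolases acp5a (ENSDARG00000019763), for tartrate-resistant acid phosphatase of macrophages and osteoclasts, had the smallest adjusted p of its class. The acp5a level was 125, 156, 349.6 and 208 TPM in MLCs and 426, 60.4, 728 and 680.0 TPM in cLCs. T cells held 0.870, 0 and 0 TPM, neutrophils 59.1, 32.3 and 151 TPM and keratinocytes 0, 0 and 0 TPM. It had 0 counts in all keratinocyte libraries and in all but 1 T cell library, and cLCs replicate 2 lay below every MLC library. The edgeR adjusted p across the 5 groups was 0.000416. Against keratinocytes, with 0 counts, acp5a was at least 3582-fold higher in MLCs (289 ± 101 CPM, SD, n = 4; edgeR adjusted p = 0.00207) and at least 5689-fold higher in cLCs (459 ± 208 CPM; edgeR adjusted p = 0.00140), taking 3 counts over the group as the floor. These bounds use the mean CPM of MLCs or cLCs and leave out the spread between libraries. Both calls held in all alternatives run. Against T cells, with 15 counts in 1 library, MLCs were higher (log2 fold change 10.11, SE 2.05, adjusted p = 0.0199 by edgeR) and so were cLCs (log2 fold change 10.77, SE 2.10, adjusted p = 0.0279 by edgeR). The adjusted p for MLCs was 0.108 without T cells replicate 2 and 0.102 without replicate 3. For cLCs it was 0.219 and 0.202 without these libraries, 0.0716 without cLCs replicate 1, 0.0685 without cLCs replicate 2 and 0.0508 without MLCs replicate 4. With only cLCs and T cells in the fit it was 0.0533. Neutrophils also held acp5a, and against them neither MLCs (edgeR adjusted p = 0.445) nor cLCs (0.301) passed.

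Markers of osteoclasts, another cell type rich in acp5a, were measured beside it. A list of 5 summed to 694 to 821 TPM in cLCs, 51.2 to 149 TPM in MLCs and 31.4 to 309 TPM in keratinocytes, in each mostly ctsk, while calcr was at 0 in all groups. Keratinocytes, with 0 acp5a counts, thus had a median sum of 209.6 TPM against 108 TPM in MLCs. Neutrophils had 0.0656 to 104 TPM and T cells 0 to 3.11 TPM. Ionocytes, epidermal cells rich in V-ATPase, were looked for in the same way. A list of 10 summed to 91.3 to 1677 TPM in keratinocytes and 42.8 to 143 TPM in cLCs, nearly all of it the carbonic anhydrase gene ca2. In keratinocytes ca15a reached 27.3 TPM and the other 8 were at 0, among them foxi3a and foxi3b. In cLCs 8 were at 0 as well, and foxi3a reached 1.23 TPM. MLCs had sums of 0 to 6.41 TPM, T cells 0 to 29.5 TPM, and neutrophils had 0 for all 10. The part of either cell type in the results was not tested.

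The gene tpp1 (ENSDARG00000042793), for the peptidase tripeptidyl peptidase, was called across the 5 groups (edgeR adjusted p = 0.0153). The tpp1 level was 20.5, 27.4, 70.8 and 61.96 TPM in MLCs and 341, 847, 761 and 274 TPM in cLCs. Keratinocytes had 22.00, 32.5 and 62.1 TPM of it, neutrophils 16.6, 0 and 0 TPM and T cells 17.7, 6.83 and 8.55 TPM. The lowest cLC library, at 274 TPM, lay above the highest of all others, at 70.8 TPM. Without cLCs replicate 2 the adjusted p was 0.0932. The difference between MLCs and cLCs did not pass (log2 fold change -3.76, SE 1.56, edgeR adjusted p = 0.321, unadjusted p = 0.0242).

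Acid ceramidase, which splits ceramide into sphingosine and fatty acid, was represented by asah1a and asah1b. The asah1b level was 47.8, 46.6, 52.9 and 52.01 TPM in MLCs and 358, 514, 1011 and 477 TPM in cLCs. Outside the mpeg1 groups asah1b stood at 89.1, 49.5 and 73.7 TPM (keratinocytes), 78.6, 0 and 0 TPM (neutrophils) and 31.7, 33.9 and 20.6 TPM (T cells). For asah1b every cLC library lay above all other libraries and MLCs were narrow, but the 5-group test did not pass (edgeR adjusted p = 0.0890). The asah1a level was 27.00, 3.74, 15.9 and 0 TPM in MLCs and 88.1, 111, 136 and 277 TPM in cLCs. T cells held 47.2, 23.6 and 0 TPM, neutrophils 394, 89.2 and 231 TPM and keratinocytes 0, 8.80 and 0 TPM. In neutrophils asah1a made up 83.4, 100 and 100% of acid ceramidase TPM, against 36.1, 7.43, 23.1 and 0% in MLCs and 19.8, 17.8, 11.9 and 36.7% in cLCs. The share of asah1a ranged from 0 to 15.1% in keratinocytes and from 0 to 59.8% in T cells. Neutrophils thus held mostly the a paralog, while keratinocytes and the mpeg1 groups held mainly the b paralog. These are descriptions of shares, since asah1a was not called (edgeR adjusted p = 0.217). Neutrophils replicates 2 and 3, at 100%, had under 6000 genes. In replicate 1 asah1b stood at 78.6 TPM, above every MLC library. The palmitoyl thioesterase gene ppt1 ranged from 26.8 to 467 TPM with counts in all libraries. The acid phosphatase gene acp2 was at 3.89, 7.37, 0.438 and 0 TPM in MLCs and 50.3, 48.4 and 68.7 TPM in neutrophils, with no overlap, and in cLCs it ran from 0 to 248 TPM.

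Of the membrane and lipid transfer genes, laptm5 (ENSDARG00000101785), a lysosomal membrane protein of blood cells that in mammals lowers antigen receptors at the cell surface, was abundant in both mpeg1 groups, neutrophils and T cells and nearly absent from keratinocytes. The laptm5 level was 1048, 1230.1, 1192 and 820.2 TPM in MLCs and 915, 897, 856 and 1689 TPM in cLCs. Keratinocytes had 0.352, 0 and 0 TPM of it, neutrophils 1254, 1113 and 1749 TPM and T cells 1638, 2737 and 2515 TPM. MLCs overlapped with cLCs and neutrophils, and T cells overlapped with neutrophils and cLCs. It had the smallest 5-group adjusted p of the 49 genes (edgeR, 0.000269). MLCs were higher than keratinocytes (log2 fold change 12.99, SE 1.59, adjusted p = 0.000104 by edgeR), with 37482 counts against 4, a ratio of 6758 and a 95% counting interval of 2639 to 24802. For cLCs the difference was close to this (log2 fold change 12.82, SE 1.58, adjusted p = 8.09e-05 by edgeR). The interval covers counting error in the keratinocyte count only and leaves out the spread between libraries. Both comparisons share the keratinocyte libraries, and both calls held in all alternatives run.

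The cholesterol transfer protein gene npc2 was highest in cLCs. The npc2 level was 313, 438, 449.9 and 442 TPM in MLCs and 1433, 1877, 882 and 921 TPM in cLCs. Outside the mpeg1 groups npc2 stood at 549, 490.1 and 801 TPM (keratinocytes), 531, 207 and 95.98 TPM (neutrophils) and 116, 0 and 139 TPM (T cells). In TPM keratinocytes lay above MLCs in every library and overlapped with neutrophils, and cLCs lay above all other groups. In CPM the keratinocyte libraries of npc2 did not all lie above the MLC libraries. The edgeR adjusted p across the 5 groups was 0.125. Its partner npc1, which takes cholesterol out through the lysosomal membrane, stood at 50.9, 38.9, 45.4 and 35.8 TPM in MLCs and 109, 63.8, 222 and 30.5 TPM in cLCs, and at 4.11, 0.241 and 16.7 TPM in keratinocytes. In TPM keratinocytes thus had npc2 above and npc1 below every MLC library. The membrane glycoprotein gene lamp2 (31.3 to 533 TPM) and laptm4a (72.8 to 473 TPM) had counts in all libraries. In TPM all groups overlapped for lamp2, while for laptm4a the T cell libraries lay above the MLC libraries and the other pairs of groups overlapped. In CPM the T cell libraries of laptm4a did not all lie above the MLC libraries. The cation channel gene mcoln1a was at most 35.3 TPM.

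**Figure D4:**
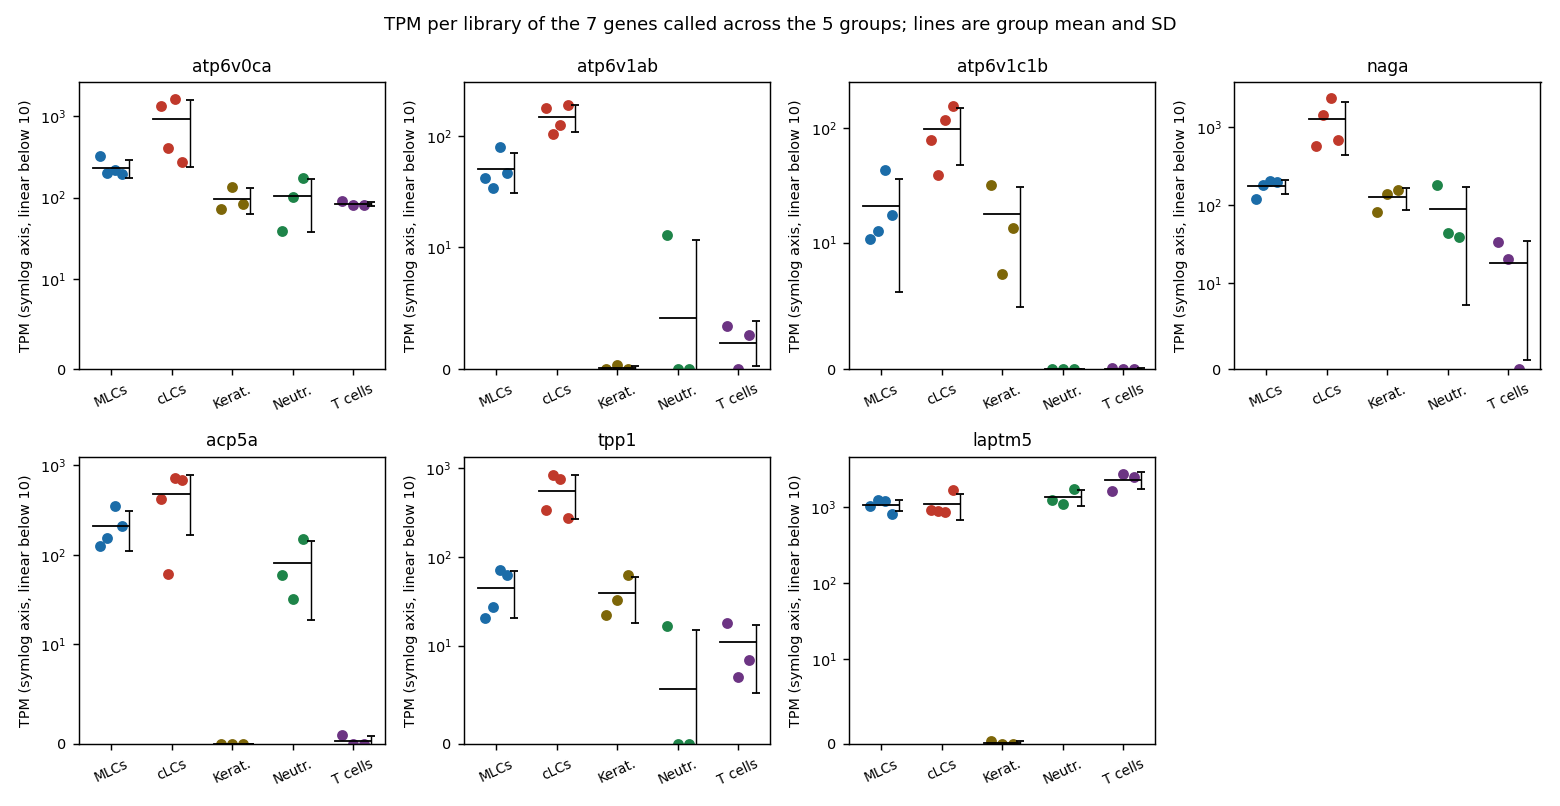
TPM per library (vertical axes, symlog scale that is linear near 0) of the 7 genes called across the 5 groups, with lines for the group mean and SD. Keratinocytes have 0 acp5a and at most 0.352 TPM of laptm5, and neutrophils and T cells have at most 0.119 TPM of atp6v1c1b.

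MLCs and cLCs, picked from the same transgenic line, were compared directly. For 37 of the 41 genes tested the fitted level was lower in MLCs, against 6947 of all 15247 genes tested. The median log2 fold change of the 41 was -1.41, against 0.13 over all genes tested. None passed edgeR's test in either direction (0.0131% of all genes were called higher in MLCs and 0.157% lower). At an unadjusted p under 0.05 edgeR had 3 lower (asah1b, tpp1 and naga, against 5.57% of all genes) and 0 higher (7.23%). DESeq2 called 0 (7.09% of all genes in either direction), limma on log2(TPM + 1) called 2 (asah1a and tpp1, against 8.40%) and limma on log2(TPM + 0.1) called 0 (7.54%). Without the 4 libraries of under 6000 genes edgeR called asah1b and tpp1 lower in MLCs, against 0.682% of all genes. In CPM, every MLC library lay below every cLC library for 11 of the 49 genes (22.4%), against 2.55% of all genes tested, and above for 0, against 7.80%. These 11 were atp6v1ab, atp6v1c1b, atp6v1d, atp6v1e1b, atp6ap1b, atp6ap2, naga, neu1, asah1a, asah1b and tpp1. The members were chosen with earlier results of these libraries known, and no p is given for the list.

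MLCs were set against the other epidermal cells in turn, with the same MLC libraries in each. Against keratinocytes, acp5a and laptm5 were called higher (2 genes, where 1.44% of all genes were called higher) and 0 lower (0.472%). Fitted folds were above 0 for 30 of 41, against 8344 of all 15247 genes, with a median of 0.91 against 0.30 over all genes. The V-ATPase genes had 18 above 0 and 1 below (median 1.27). The 22 lysosomal genes were split, with 12 above and 10 below (median 0.11, under that of all genes). Against neutrophils, atp6v1c1b was called higher (1 gene, against 1.53% of all genes) and 0 lower (0.367%), and the median of 1.02 was close to the 1.08 of all genes. In CPM 9 genes lay above (13.4% of all genes) and 3 below (3.00%). Against T cells, acp5a was called higher (1 gene, against 0.774%) and 0 lower (0.433%), with a median of 1.59 against -0.09. There 23 genes lay above in all libraries (11.0% of all genes) and 2 below (11.9%).

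The same comparisons were made for cLCs, with the same cLC libraries in each. Against keratinocytes 39 of 41 genes had a fold above 0, against 8171 of all 15247 genes. The median log2 fold change was 2.56 against 0.26 over all genes. Of the members acp5a and laptm5 were called (2 higher, against 2.02% of all genes, and 0 lower, against 1.35%). Against neutrophils the median was 2.61 against 1.00, and atp6v1c1b was called (1 higher, against 0.721%, and 0 lower, against 0.138%). Against T cells the median was 3.23 against -0.09, and acp5a was called (1 higher, against 0.125%, and 0 lower, against 0.0787%). At an unadjusted p under 0.05 edgeR had 14 genes higher than keratinocytes (13.0% of all genes), 12 higher than neutrophils (16.8%) and 19 higher than T cells (7.99%). In CPM every cLC library lay above every keratinocyte library for 19 of the 49 genes (4.77% of all genes), above neutrophils for 17 (3.91%) and above T cells for 23 (3.99%). Without the 4 libraries of under 6000 genes 12 were called higher than keratinocytes (4.13% of all genes in that fit), 0 higher than neutrophils (0.0100%) and 11 higher than T cells (2.07%).

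Further genes of the pathway were taken from 5 lists with 102 identifiers, of which 95 were tested and 17 were called across the 5 groups, again near the 16.0% of all genes. The counts per list follow, and differences between the lists were not tested. Of the genes tested, other lysosomal hydrolases and their activators had 10 of 27 called. Lysosomal membrane and transport genes had 4 of 25, and transcription and nutrient sensing genes 3 of 17. Genes of delivery to the lysosome had 0 of 16 called by edgeR (1 at an unadjusted p under 0.05, against 31.0% of all genes). V-ATPase assembly and other V-ATPase genes had 0 of 10 (2 at an unadjusted p under 0.05, against the same 31.0%). In pairs of groups edgeR called 1 of them higher in MLCs than in keratinocytes (1.44% of all genes), 3 higher than in neutrophils (1.53%) and 1 higher than in T cells (0.774%). For cLCs it called 3 higher than keratinocytes (2.02%), 3 higher than neutrophils (0.721%) and 1 higher than T cells (0.125%), and 0 were lower in these comparisons. Between MLCs and cLCs 0 were called. At an unadjusted p under 0.05, 12 were lower in MLCs (5.57% of all genes) and 1 higher (7.23%). Other tools and left-out libraries were not run on these lists.

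The lipid-binding activators differed in where they were highest. The gene psap, precursor of the saposins that help glycosphingolipid hydrolases, was at 227, 1133, 1218 and 602 TPM in MLCs and 1358, 6364, 6667 and 5326 TPM in cLCs. It stood at 349.8, 94.02 and 218 TPM (keratinocytes), 317, 142 and 160.1 TPM (neutrophils) and 244, 183 and 205 TPM (T cells). By edgeR, cLCs were higher than keratinocytes (log2 fold change 4.51, SE 0.94, adjusted p = 0.00900), neutrophils (log2 fold change 5.06, SE 0.97, adjusted p = 0.0119) and T cells (log2 fold change 5.29, SE 0.98, adjusted p = 0.0232). The gene gm2a, for the activator that presents the ganglioside GM2 to beta-hexosaminidase, was highest in MLCs, at 3219.8, 4523, 4494 and 3165 TPM. In cLCs gm2a was at 1103, 729, 574 and 735 TPM, and elsewhere at 85.4, 214 and 213 TPM (keratinocytes), 355, 99.8 and 201 TPM (neutrophils) and 56.7, 69.2 and 92.3 TPM (T cells). All MLC libraries lay above all others. MLCs were higher by edgeR than keratinocytes (log2 fold change 4.50, SE 0.98, adjusted p = 0.0155), neutrophils (log2 fold change 4.67, SE 0.99, adjusted p = 0.0166) and T cells (log2 fold change 6.55, SE 1.08, adjusted p = 0.0103), and the difference from cLCs did not pass (log2 fold change 2.35, SE 0.78, adjusted p = 0.246). The genes for acid sphingomyelinase (smpd1) and alpha-fucosidase (fuca1.1) were called higher than neutrophils in both mpeg1 groups. Neutrophils replicates 2 and 3 had under 6000 genes, and no call against neutrophils in this paragraph was tested without them. In neutrophils smpd1 had 0 counts and fuca1.1 was at most 0.0428 TPM, while fuca1.1 reached 597 TPM in keratinocytes.

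The MiT/TFE factors, which bind E-box elements near many lysosomal genes in mammals, differed in where they were found. The gene tfeb was at 18.6, 8.03, 12.8 and 19.5 TPM in MLCs and 71.4, 22.7, 134 and 1.41 TPM in cLCs, and at most 0.0274 TPM in keratinocytes (cLCs against keratinocytes log2 fold change 12.21, SE 3.30, adjusted p = 0.0407 by edgeR). Its lowest cLC value lay below all MLC values. The gene tfec was at 16.6, 11.00, 65.5 and 74.3 TPM in cLCs and at most 0.0578 TPM in any other library (5-group edgeR adjusted p = 0.000874). Against keratinocytes, at 0 counts, it was at least 1238-fold higher in the mean of cLCs (edgeR adjusted p = 0.0336). That bound leaves out the spread between libraries. The gene mitfb was at 36.7, 22.9, 285 and 0 TPM in cLCs and at most 1.36 TPM elsewhere (5-group edgeR adjusted p = 0.0126). Neither tfe3a (0.439) nor tfe3b (1.00) was called, and mitfa did not pass the filter. The alternative subunit a gene tcirg1b, known from osteoclasts, was at 93.02, 121, 135 and 103 TPM in MLCs and 247, 92.00, 317 and 153 TPM in cLCs, and at 30.3, 11.2 and 15.9 TPM (keratinocytes), 24.04, 80.6 and 0 TPM (neutrophils) and 4.77, 13.7 and 0 TPM (T cells). With it counted among the subunit a genes it made up a mean of 73.0% in MLCs, 72.8% in cLCs and 32.7% in keratinocytes. Its share ranged from 68.9 to 79.0% in MLCs and 50.9 to 98.0% in cLCs. The range was 0 to 58.6% in neutrophils and 0 to 98.3% in T cells, so both overlapped with cLCs. The 5-group adjusted p of tcirg1b was 0.137 by edgeR. Its paralog tcirg1a did not pass the filter.

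**Figure D5:**
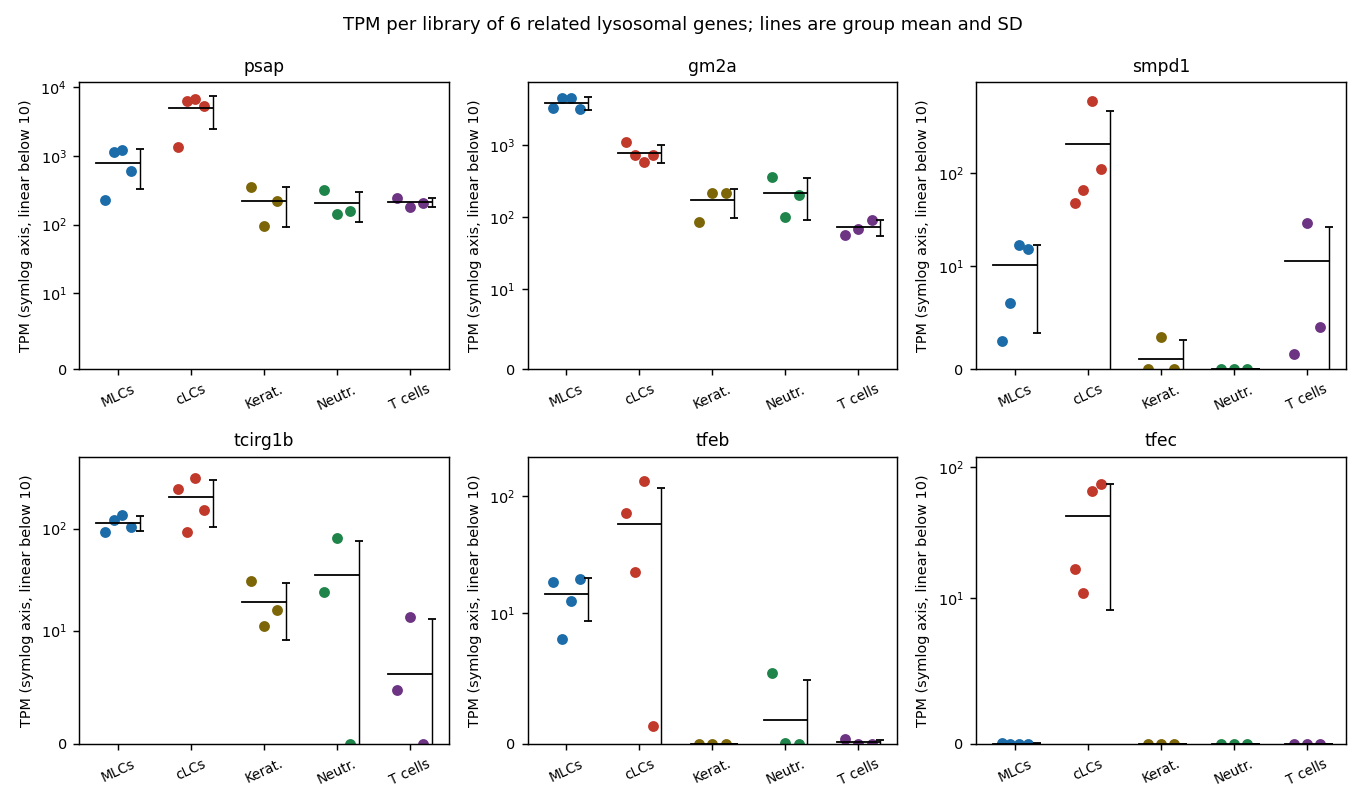
TPM per library (vertical axes, symlog scale, linear below 10) of 6 genes of the pathway lists, with lines for the group mean and SD. The gene gm2a is highest in the 4 MLC libraries, whereas psap, smpd1 and tfec have their highest means in cLCs.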

How the data were processed

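The authors deposited a table of raw read counts per Ensembl gene and a table of TPM (transcript abundance that the authors normalised for gene length and depth) for 17 paired-end SMART-seq2 libraries, per the labels. STAR, featureCounts and the build danRer10 are named, per the submitters' processing notes. Their versions, the annotation release and the settings for strand and multiply mapped reads were not stated. Each table had 35572 lines, of which 455 repeated an identifier with identical values, leaving 35117.

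The test was edgeR 4.0.16 under R 4.3.3 (TMM scaling, filterByExpr with the groups, which kept 15247 genes, quasi-likelihood fit of all 17 libraries with 1 mean per group and 12 residual degrees of freedom). Adjusted p are Benjamini-Hochberg values over all tested genes, called under 0.05. Levels, sums and shares are TPM, and CPM are counts scaled to the TMM library size. Folds against 0 set the mean CPM of the other group against 3 counts over the group at 0. They leave out the spread between libraries. Counting intervals use the pooled count of the second group, with the mean CPM of the first group held fixed. They do not measure the spread between libraries. The SE beside a log2 fold change is its absolute value divided by the square root of the quasi-likelihood F statistic. It is not a standard error given by the fit. The fit was also run on simulated counts with changes placed in cLCs only. The outcome is not given here, and no conclusion on the power of the tests is drawn from it.

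Members and lists were chosen with earlier results of these data known. Values in every library are given for called members, the 2 most abundant of each role and paralogs of 1 subunit with at least 20 TPM in some group. Others are described by range, or by values chosen after they were seen. Of the pathway lists, the 10 called genes with the smallest p, the MiT/TFE genes, tcirg1a and tcirg1b could be named. The symbols rab7b, limp2, scarb2b, plbd1a, plbd1b, psapb, and the markers cd3eb, trac, dcstamp and oscar matched no identifier. Replicates are labelled as independent experiments, but the animals are not given, so p-values measure the spread between these libraries.

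The alternatives changed the scaling (RLE), the tool (DESeq2 1.42.0), the filter (none, or 10 CPM or more in 3 libraries) or the model (replicate number as a block; the 2 groups compared alone). Others used limma 3.58.1 on log2(TPM + 1) or log2(TPM + 0.1), with genes at 1 TPM or more in 3 libraries, or left out each library. Leaving out the 4 libraries of under 6000 genes was chosen with the data seen.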

Additional observations from a re-analysis of the deposited data

Results flagged for a closer look

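In 3 of the 44 groups of 4 libraries examined (MLCs and cLCs for the genes with values in every library and the summed levels), 1 library stood far from the other 3, and chance gives about 1 in 20 such groups. The V1 stator gene atp6v1g1 was at 1151 TPM in cLCs replicate 1, and the other cLC libraries lay between 358 and 476 TPM. The lysosomal membrane gene laptm5 was at 1689 TPM in cLCs replicate 4, which has 4484 genes with counts, and the others lay between 856 and 915 TPM. The cholesterol transfer gene npc2 was at 313 TPM in MLCs replicate 1, below the 438 to 450 TPM of the other MLC libraries.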

How the results depend on the processing

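The counts of members called moved by more than 1.5 times under several settings. No pairwise difference of a member called in the main edgeR fit changed direction in the settings run. The direction of other differences was not compared between settings. The share of all tested genes called in the same fit, in either direction, follows in brackets. With limma on log2(TPM + 1) there were 19 called across the 5 groups (31.4%), 2 between MLCs and cLCs (8.40%), 4, 4 and 7 for MLCs against keratinocytes, neutrophils and T cells (12.6%, 8.91% and 13.8%), and 16, 9 and 14 for cLCs against the same groups (14.1%, 4.81% and 14.9%). With log2(TPM + 0.1) the counts were 15 across the groups (28.5%), 4, 4 and 5 for MLCs (11.7%, 9.21% and 11.5%), and 11, 5 and 11 for cLCs (12.9%, 3.99% and 9.89%). DESeq2 called 11 across the groups (18.3%), 3 and 6 for MLCs against neutrophils and T cells (17.8% and 9.41%), and 8, 9 and 15 for cLCs (17.9%, 14.4% and 7.61%). RLE scaling gave 2 against T cells for MLCs (1.49%) and for cLCs (0.295%). It moved the median over all genes (log2 fold change) against keratinocytes to 0.08 for MLCs and 0 for cLCs, and that of the members to 0.72 and 2.30. Against neutrophils the members' median became 0.83 for MLCs and 2.42 for cLCs, with 1.00 and 0.89 over all genes. Without the filter on low counts MLCs against neutrophils had 0 (2.66%), cLCs against neutrophils 2 (1.92%) and cLCs against T cells 5 (1.44%). With at least 10 CPM in 3 libraries there were 2 for MLCs (2.36%) and 2 for cLCs (0.547%) against T cells, and 4 for cLCs against keratinocytes (6.47%). With only the 2 groups compared, MLCs against T cells had 6 (8.498%), cLCs against neutrophils 0 (1.65%) and cLCs against T cells 2 (0.918%), which did not include acp5a. Without the 4 libraries of under 6000 genes the counts were 14 across the groups (12.1%), 2 between MLCs and cLCs (0.788%), 0 and 2 for MLCs against neutrophils and T cells (0.943% and 3.93%), and 12, 0 and 11 for cLCs (5.10%, 0.0100% and 2.29%). The cause of these changes was not tested.

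With each library left out in turn, 4 to 9 members were called across the groups (11.7% to 16.2% of all genes) and 0 to 0 between MLCs and cLCs (0% to 0.280%). Counts for MLCs were 2 to 3 against keratinocytes (0.641% to 2.59%), 0 to 4 against neutrophils (0.369% to 3.27%) and 0 to 2 against T cells (0.0116% to 2.00%). For cLCs they were 2 to 3 (1.15% to 4.07%), 0 to 5 (0.236% to 1.54%) and 0 to 2 (0% to 0.519%). The replicate numbers did not meet the rule for pairing, a correlation of deviations over 0.1 in every pair of libraries with the same number. Between MLCs and cLCs, of the same line, the 4 correlations ran from 0.0323 to 0.176, were over 0.1 in 2, and were the best with their own number in 3. In the other comparisons 0 of 18 were over 0.1, and they ran from -0.0436 to 0.0682. Genes with counts in replicates 1 to 4 numbered 15684, 15113, 10115 and 8972 in MLCs and 16200, 15203, 5662 and 4484 in cLCs. Total counts in the same order were 5837662, 21343723, 17064773 and 15765265 in MLCs and 6158350, 19046921, 15748369 and 14248945 in cLCs. Whether MLC and cLC libraries of the same number share an experiment was not tested. With the replicate block 10 members were called across the groups (20.1%), 0 between MLCs and cLCs (1.79%), 0 for MLCs against neutrophils (3.63%), 2 for cLCs against neutrophils (2.45%) and 3 for cLCs against T cells (1.86%).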
